A study of Mus musculus with 8 samples.

Results

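Cyclin-dependent kinase (CDK) inhibitors and the p53 pathway hold hepatocytes out of the cell cycle in the resting liver, and chromatin accessibility at 10 of their genes was followed through liver regeneration. The genes were chosen by name. They were Cdkn1a, Cdkn1b and Cdkn1c of the CIP/KIP family and Cdkn2a, Cdkn2b and Cdkn2c of the INK4 family. The others were Trp53 itself with its inhibitor Mdm2, the antiproliferative gene Btg2 and the stress response gene Gadd45b. These members are 10 of 21938 protein-coding genes in the annotation. Open DNA was mapped by bulk ATAC-Seq, where the transposase Tn5 cuts accessible chromatin, in hepatocytes that had been obtained by collagenase perfusion from C57BL/6 mice (C57BL/6J in the study's methods) aged 10 to 12 weeks by the labels. There were 8 libraries, 2 from undamaged liver (0 h) and 2 for each of the times 48, 72 and 96 h that followed partial hepatectomy (PHx), the surgical removal of most of the liver. All animals received a normal diet, and no sham-operated group was among the libraries, so surgery and regeneration cannot be told apart. The study describes hepatocyte preparations from separate mice at each time point and, at 0 and 48 h, more biological replicates of bulk ATAC-Seq than the 2 libraries analysed here. The labels do not name the animal behind each library, and p-values measure the spread between these libraries.

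The CIP/KIP proteins p21 (Cdkn1a), p27 (Cdkn1b) and p57 (Cdkn1c) bind and block cyclin-CDK complexes, whereas the INK4 proteins p16 (Cdkn2a), p15 (Cdkn2b) and p18 (Cdkn2c) bind CDK4 and CDK6 and keep cyclin D away from them. The transcription factor p53 is held low by the ubiquitin ligase Mdm2, is released from it by Arf, the other product of the Cdkn2a locus, and activates Cdkn1a, Mdm2 and Btg2 through paired copies of a 10-base motif in DNA. After PHx most hepatocytes leave quiescence, replicate their DNA and return to rest, and p21 is known as a brake on that entry.

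Each library was deposited as 1 list of peaks called against local background. The lists held 105206 to 154577 distinct intervals covering 42.0 to 62.9 Mb. Signal differed between lists: the −log10 p at the 50000th interval was 8.05 and 8.62 in the 48 h libraries and 8.29 in 96 h replicate 2, against 9.96 to 15.2 in the other 5. Accessibility was therefore expressed as the rank of an interval in its own list, with rank 1 the strongest. The percentile is the share of a list at or below that rank. A gene's promoter was the region within 1 kb of any of its transcription start sites (TSS). Changes are log2 rank at 0 h minus log2 rank after PHx, so that positive values mean a stronger place after PHx. They were tested with limma, with Benjamini-Hochberg adjusted p over all features. Bulk signal cannot separate a smaller share of nuclei that are open from less opening per nucleus.

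The 10 genes with 10 kb on each side held 43 to 55 intervals per list, which merged across lists into 69 of 315767 regions. Of these, 18 touched a promoter of the 10 genes, 48 were distal and 3 lay at the TSS of a neighbouring gene. At least 2 lists held 52 of the 69, made up of 16 promoter regions, 33 distal regions and all 3 at neighbouring TSSs, and 23 were in all 8 lists. Regions in the shared interval between Cdkn2a and Cdkn2b were counted once.

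The sequences on which the results below turn are printed here from the mm10 reference, each 5' to 3' on the strand given. The first is a p53 site of Cdkn1a, with its paired 10-base motifs in capitals. The others run for 100 bases on each side of the strongest summit (for Cdkn1b, 167 bases that stop at the TSS), in regions whose ranks differed between time points or that held a p53 site. In these, capitals mark matches on either strand to short motifs named in the paragraphs on each gene, and for Mdm2 also its p53 site. A match describes the letters and shows no binding.
Cdkn1a p53 site, chr17:29090906-29090947, plus strand: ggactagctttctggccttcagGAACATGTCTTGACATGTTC
Cdkn1b promoter, chr6:134920234-134920400, plus strand: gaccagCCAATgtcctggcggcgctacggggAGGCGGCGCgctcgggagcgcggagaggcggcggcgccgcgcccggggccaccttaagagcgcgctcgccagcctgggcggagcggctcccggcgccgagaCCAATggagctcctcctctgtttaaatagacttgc
Lockd TSS downstream of Cdkn1b, chr6:134928611-134928811, plus strand: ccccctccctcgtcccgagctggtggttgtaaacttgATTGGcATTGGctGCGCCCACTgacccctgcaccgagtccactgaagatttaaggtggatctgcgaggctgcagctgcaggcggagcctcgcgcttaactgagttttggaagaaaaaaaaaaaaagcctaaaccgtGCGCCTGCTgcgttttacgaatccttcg
Cdkn1c upstream region, chr7:143466376-143466576, minus strand: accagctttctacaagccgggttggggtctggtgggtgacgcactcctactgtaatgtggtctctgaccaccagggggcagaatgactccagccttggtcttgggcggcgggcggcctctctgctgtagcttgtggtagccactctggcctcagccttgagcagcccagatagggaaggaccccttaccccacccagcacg
Cdkn2b promoter region, chr4:89310527-89310727, minus strand: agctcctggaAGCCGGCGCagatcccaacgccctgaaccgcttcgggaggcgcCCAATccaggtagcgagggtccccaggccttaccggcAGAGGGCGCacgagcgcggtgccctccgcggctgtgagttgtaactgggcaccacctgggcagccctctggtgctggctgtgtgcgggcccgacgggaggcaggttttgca
Trp53 intron 1 region, chr11:69581454-69581654, plus strand: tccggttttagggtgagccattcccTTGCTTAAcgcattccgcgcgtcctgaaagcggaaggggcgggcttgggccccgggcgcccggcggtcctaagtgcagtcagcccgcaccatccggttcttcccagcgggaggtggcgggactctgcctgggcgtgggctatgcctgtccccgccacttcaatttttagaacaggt
Mdm2 upstream region, chr10:117717688-117717888, minus strand: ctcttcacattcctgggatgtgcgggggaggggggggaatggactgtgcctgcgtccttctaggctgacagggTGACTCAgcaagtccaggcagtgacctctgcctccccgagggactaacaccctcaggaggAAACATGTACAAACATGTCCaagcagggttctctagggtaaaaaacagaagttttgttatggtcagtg
Btg2 downstream region, chr1:134065434-134065634, minus strand: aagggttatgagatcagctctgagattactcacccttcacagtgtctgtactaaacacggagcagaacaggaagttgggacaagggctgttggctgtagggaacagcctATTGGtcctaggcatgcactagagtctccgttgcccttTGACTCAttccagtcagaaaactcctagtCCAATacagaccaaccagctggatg

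The 10 promoters differed widely in accessibility. By median percentile over the lists that held an interval, Cdkn2c (98.8), Cdkn2b (98.1) and Cdkn1b (97) led, followed by Trp53 (93.9) and Mdm2 (91.6). Cdkn2a (82), Cdkn1a (72.3) and Gadd45b (69.2) came next, and Btg2 (51.3 over 6 lists) and Cdkn1c (49) were last. With its 2 lists without an interval counted as 0, Btg2 had a median of 42.6, below Cdkn1c. Neighbours in this order overlapped over the 8 libraries. Cdkn2c ranged from 98 to 99.6 and Cdkn2b from 95.8 to 99.2, whereas Cdkn1c ranged from 29.9 to 66.5 and never reached the lowest value of either. All 10 promoters were in at least 2 lists and 9 were in all 8. Btg2 was the exception, with no promoter interval in 48 h replicate 2 and 96 h replicate 1.

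**Figure D1:**
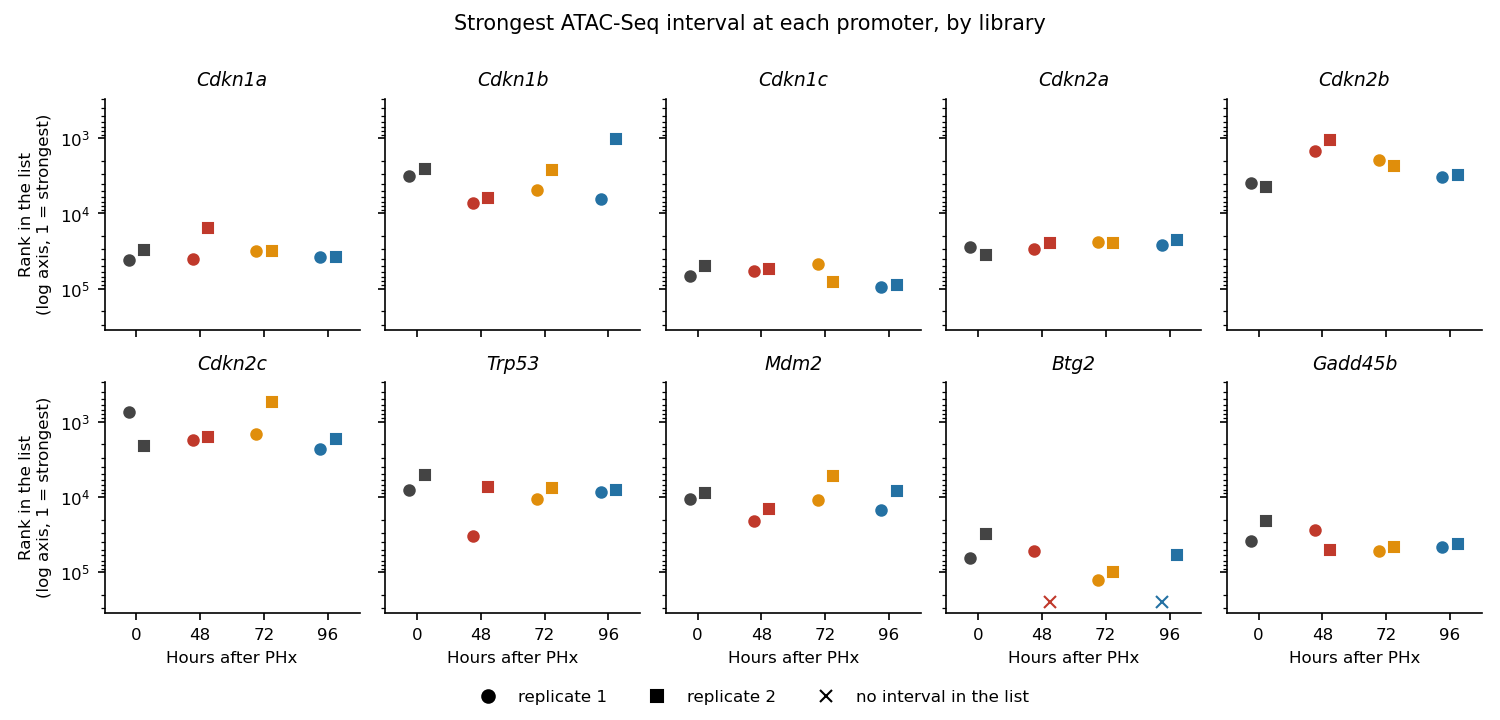
Rank of the strongest interval at each of the 10 promoters (log axis, 1 = strongest at the top) by hours after PHx (0 to 96). Each point is 1 library, circles for replicate 1 and squares for replicate 2, and a cross marks a list without an interval. At 48 h Cdkn2b stood above its 0 h ranks, at 1456 and 1060, and Cdkn1b below, at 7305 and 6326.

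No promoter of the 10 genes passed the threshold of adjusted p under 0.05 at any time in limma. The fit held 13220 promoters with an interval in all 8 lists, 9 of them from this group. At 48 h, 1 of these 9 had an unadjusted p under 0.05, and at 72 h, 96 h and for the mean of the 3 PHx times the number was 0. Across all promoters the shares called were 0.0454% at 48 h, 0% at 72 h, 0.00756% at 96 h and 0.0227% for the PHx mean, while 1657, 1303, 701 and 1405 promoters had an unadjusted p under 0.05. The median change of all promoters was −0.20, −0.24 and −0.10 at the 3 times on the log2 scale. The median change of the 9 promoters was −0.41, 0.18 and −0.19.

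The groups did not overlap for a few of the 10 promoters at each time. Both 48 h libraries stood above both 0 h libraries at 1 of the 10 promoters, beside 16.4% of 15515 promoters genome-wide, and below them at 2, beside 26.4%. At 72 h the counts were 2 above and 2 below (16.5% and 28.8%), and at 96 h 2 above and 3 below (14.2% and 18.2%). With 2 libraries against 2, the smallest 2-sided exact permutation p is 0.33, so these counts are descriptions. They also depend on list length: on percentiles, which allow for it, 4 promoters stood above and 1 below at 72 h, with Cdkn1a and Mdm2 joining those above and Gadd45b leaving those below. At 96 h, 2 stood above and 2 below on percentiles, since the Trp53 promoter (94.2 and 93.6 against 93.7 and 95.2 at 0 h) then overlapped. Percentiles of single regions were worked out after the values were seen.

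Cdkn2b (chr4:89306299-89311039, minus strand), which encodes p15, was the 1 promoter with an unadjusted p under 0.05 at 48 h. Its interval ranked 3981 and 4466 at 0 h, then 1456 and 1060 at 48 h, next 1969 and 2331 at 72 h and finally 3235 and 3045 at 96 h. All 6 libraries after PHx stood above both 0 h libraries, the 48 h pair highest and the 96 h pair nearest to the start. The change at 48 h was 1.76 ± 0.74 (SE, limma, 2 libraries per group, adjusted p = 0.318), a rank 3.39 times closer to the top. It was 0.98 at 72 h and 0.43 at 96 h. The difference lay in the place within the list and not in the linear fold enrichment, which was 15.7 and 15.9 at 0 h against 13.7 and 16.0 at 48 h. When fold enrichment was centred on each library's median, the change at 48 h was 0.35 on the log2 scale. The summit lay 397 to 417 bp inside the gene in all 8 lists. The sequence there held 2 matches to the CTCF core AGNNGGCGC and 1 to the NF-Y box CCAAT, motifs found in 12.3% and 24.3% of all promoter windows of the same length.

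Cdkn2a (chr4:89274471-89294653, minus strand), the neighbour of Cdkn2b, had an interval at the start of Arf in all 8 lists and at that of p16 in 4. The interval at the Arf TSS ranked 27908 and 35857 at 0 h, then 29300 and 24864 at 48 h, next 24154 and 25080 at 72 h and finally 26380 and 22762 at 96 h. The 72 and 96 h libraries all stood above both 0 h libraries, with changes of 0.36 ± 0.48 and 0.37 ± 0.48 (limma, adjusted p = 0.815 and 0.977). Without 0 h replicate 2 these changes were 0.18 and 0.19. At the p16 TSS no interval was listed at 0 h or 48 h. There it appeared in both 72 h lists, at ranks 85703 and 109577, and in both 96 h lists, at 111741 and 111144, which are percentiles of 38.9, 29.1, 22.8 and 12.9. The list of 0 h replicate 2 ended at rank 105206, so 3 of these 4 ranks lay beyond its end. A region in an intron of Cdkn2a, the strongest distal one of the gene, ranked 37924 and 25333 at 0 h against 50178 and 41587 at 48 h, where both libraries ranked lower but overlapped the 0 h pair on percentiles (57.5 and 70.2 against 70.1 and 75.9).

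Cdkn2c (chr4:109660876-109667189, minus strand), which encodes p18, had the most accessible promoter of the 10. It ranked 737 and 2089 at 0 h, then 1728 and 1584 at 48 h, next 1476 and 547 at 72 h and finally 2320 and 1674 at 96 h. The groups overlapped at each of the 3 times, and the changes were −0.42, 0.47 and −0.67 with an SE of 0.82. Its window also holds the TSS region of Faf1, at ranks between 1007 and 4238, and that of the noncoding gene 9630013D21Rik, at 3877 to 11280, which belong to those genes.

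Cdkn1a (chr17:29090976-29100727, plus strand), the best known p53 target of the group, was of middling accessibility. Its promoter interval ranked 41331 and 30487 at 0 h, then 39888 and 15717 at 48 h, next 31555 and 31295 at 72 h and finally 38232 and 38455 at 96 h. On ranks the groups overlapped at all 3 times, while on percentiles the 72 h pair (77.5 and 79.8) stood above the 0 h pair (67.4 and 71.0). The change at 48 h was 0.50 ± 0.48 (limma, adjusted p = 0.699), and without 48 h replicate 2 it turned to −0.17. The summits lay 645 to 1179 bp inside the nearest TSS, in the part of the gene that begins at position 29093769, and the window there held an AP-1 match (TGANTCA, in 2.91% of promoter windows).

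The p53 site of Cdkn1a printed above lay outside the intervals of all 8 lists. Its centre is at −42 bp from the most upstream TSS of the gene and at −2832 bp from the next one, and the interval nearest to it was 2606 to 2673 bp away, depending on the list. It was the 20-base stretch with 1 mismatch to the consensus, and the bases printed before it held a further copy of the 10-base motif, which made 1 match without a mismatch across a spacer of 12 bases. That was the only match without a mismatch in the 288 kb around the 10 genes. With 1 mismatch allowed, a search added after the values were seen, 20 pairs of the motif were found with spacers of 0 to 13 bases. Only 2 of them lay in an interval of any list, 1 near Mdm2 and 1 near Btg2. Such a pair was found in 0.271% of the summit windows of all promoters and in 0.745% of those of distal regions.

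Cdkn1b (chr6:134920401-134925513, plus strand), which encodes p27, had lower ranks at 48 h both at its promoter and at a neighbouring noncoding gene. The promoter ranked 3157 and 2577 at 0 h, then 7305 and 6326 at 48 h, next 4831 and 2656 at 72 h and finally 6344 and 1011 at 96 h. The 48 h pair lay below both 0 h libraries, and the later pairs overlapped them. The change at 48 h was −1.25 ± 0.78 (limma, adjusted p = 0.511). At 96 h the estimate of 0.17 rested on replicate 2, without which it was −1.15. The promoter sequence held 2 NF-Y boxes and 1 CTCF core.

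The largest 48 h change among the 23 regions near the 10 genes that were in all 8 lists was at the TSS of Lockd, a noncoding gene downstream of Cdkn1b whose start region is known as an enhancer of Cdkn1b in red cell precursors. The region (chr6:134928225-134929350), 1126 bp long with its summit 8198 bp downstream of the Cdkn1b TSS, ranked 3345 and 2320 at 0 h against 20378 and 15252 at 48 h. At 72 h it ranked 5091 and 7718, and at 96 h 8253 and 2262. Fold enrichment, not centred on each library's median and so open to a shift of the whole list, was 13.2 and 15.5 at 0 h against 5.85 and 7.18 at 48 h. The groups did not overlap at 48 or 72 h. The change at 48 h was −2.66 ± 0.72, with an unadjusted p of 0.000679 and an adjusted p of 0.158 in a limma fit on all 57473 regions in 8 lists, promoters included. That fit was added after the values were seen so that single regions at a TSS have a value, and it called 0.0122% of all regions at 48 h and 0 of the 23 near these genes. An unadjusted p under 0.05 at 48 h was reached by 5 of those 23, and by 6764 of the 57473 regions (11.8%). The Lockd sequence held 2 NF-Y boxes and 2 CTCF cores, and it is named here because of its values.

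Cdkn1c (chr7:143458339-143461050, minus strand), the imprinted p57 gene, had one of the weakest promoters of the 10, beside Btg2. The strongest promoter interval ranked 67693 and 50523 at 0 h, then 57500 and 54686 at 48 h, next 47001 and 82383 at 72 h and finally 94232 and 89363 at 96 h. The 96 h pair lay below both 0 h libraries, with a change of −0.65 ± 0.38 (limma, adjusted p = 0.945). The interval was not the same one in each library: it had its summit near the TSS in 4 lists and 1267 to 1290 bp inside the gene in the other 4. The region inside the gene ranked 34746 and 37335 at 96 h, above its 0 h ranks of 67693 and 68047, but at 96 h its intervals fell outside the 1 kb window. The direction at 96 h therefore depends on which of these regions is read. A region with its summit at −5426 bp (chr7:143466198-143466677) ranked 71726 and 53927 at 0 h, then 29885 and 24166 at 48 h, next 28639 and 26497 at 72 h and finally 38038 and 67288 at 96 h. Both 48 h and both 72 h libraries stood above both 0 h libraries and in the 50000 strongest intervals, which neither 0 h library reached. Its change was 1.21 ± 0.47 at 48 h and 1.17 ± 0.47 at 72 h (limma on distal regions, unadjusted p = 0.0133 and 0.016, adjusted p = 0.309 and 0.589). The sequence printed for it matched none of the 12 short motifs in the fixed letters searched. Other forms of these motifs, such as a CTCF site that departs from AGNNGGCGC, were not searched, so their absence is not shown.

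**Figure D2:**
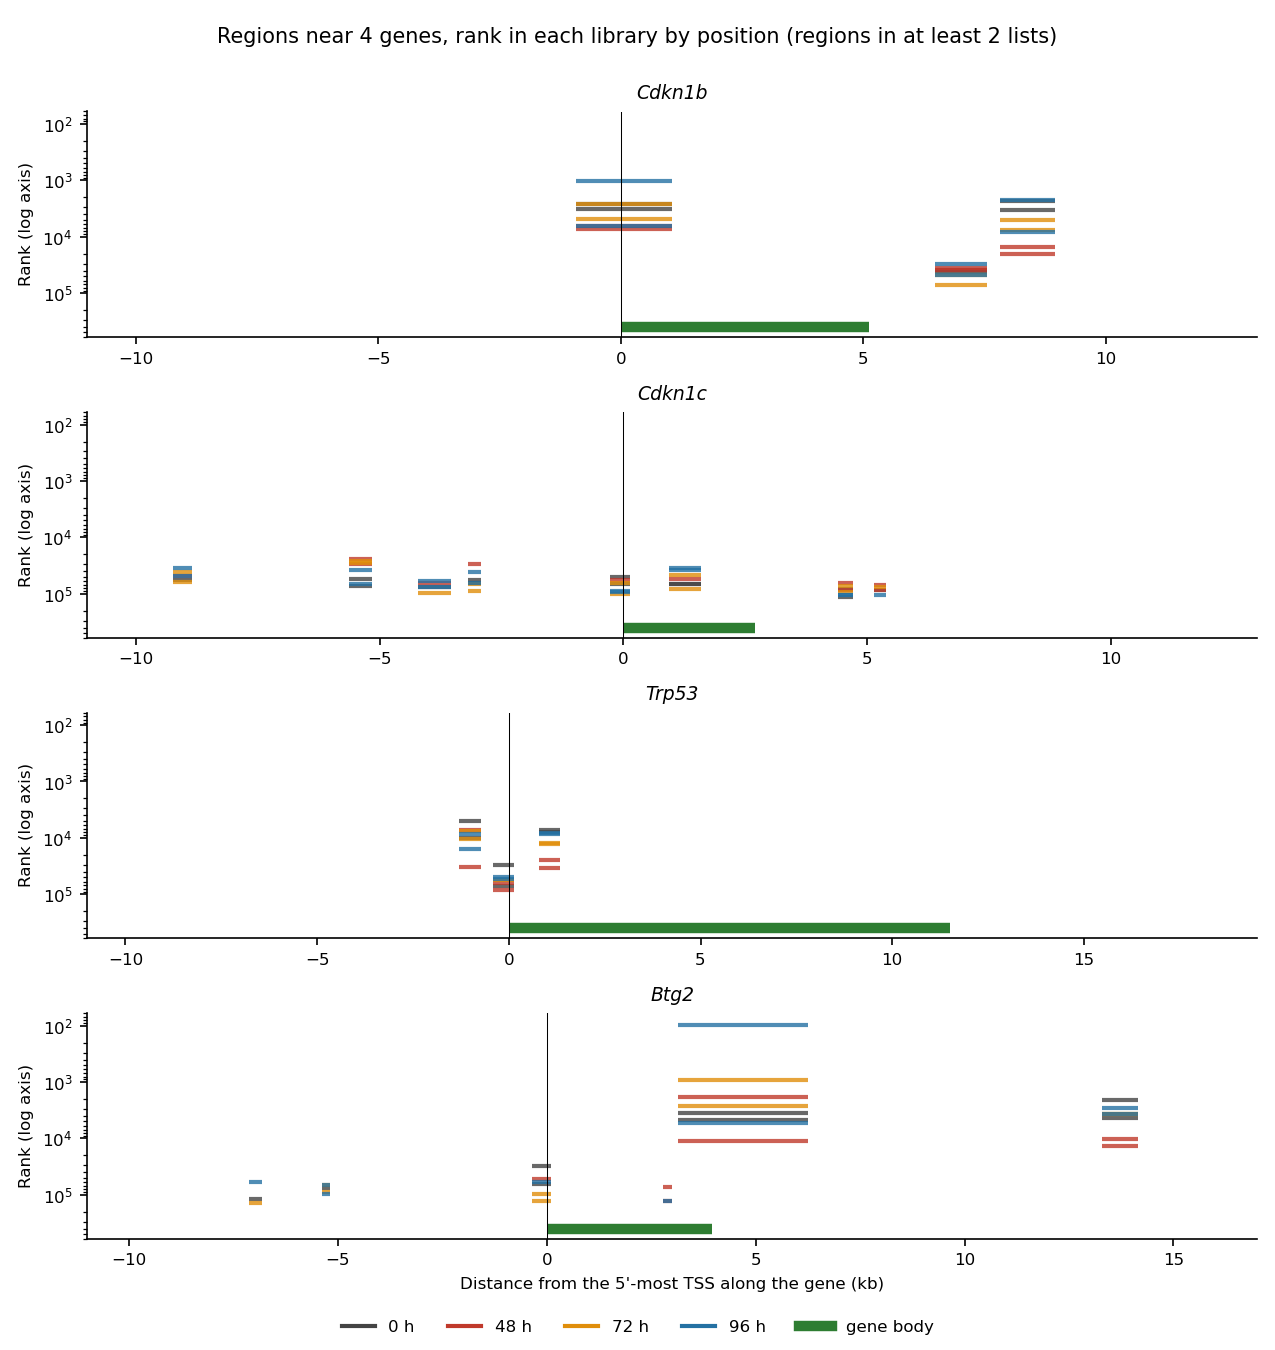
Regions in at least 2 lists near Cdkn1b, Cdkn1c, Trp53 and Btg2, by distance in kb from the 5'-most TSS along the gene (x) and rank in each library (y, log axis, strongest at the top). Each bar is 1 library at 1 region, coloured by time, and the green bar is the gene body. The 48 h bars (red) lie lowest at the Lockd TSS, in intron 1 of Trp53 and downstream of Btg2, and high at −5426 bp from Cdkn1c.

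Trp53 (chr11:69580359-69591873, plus strand) had a strong interval on each side of its TSS and a weaker one at the TSS, and the one in its first intron ranked lower at 48 h. That region (chr11:69581145-69581693), 549 bp long with its summit 1149 bp inside the gene, ranked 7984 and 7125 at 0 h, then 34003 and 24770 at 48 h, next 12671 and 12357 at 72 h and finally 8468 and 8109 at 96 h. The 48 and 72 h pairs lay below both 0 h libraries on ranks and on percentiles. The 96 h pair ranked just below them but overlapped them on percentiles (94.2 and 93.6 against 93.7 and 93.2). Fold enrichment was 11.6 and 10.1 at 0 h against 5.56 and 6.35 at 48 h. These values were not centred on each library's median, so they include any shift of the whole list. The change at 48 h was −1.94 ± 0.60, with an unadjusted p of 0.00255 and an adjusted p of 0.213 in the limma fit on all regions. The sequence held 1 C/EBP match (TTGCNNAA, in 4.61% of promoter windows), the motif of a factor family that directs hepatocyte genes. The region was named after its values were seen.

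The interval at the TSS was in 7 lists, at ranks between 30360 and 82849. The other strong Trp53 interval had its summit at −1014 bp, in an intron of Wrap53, the gene that starts in the opposite direction. It ranked 10055 and 5037 at 0 h, then 33535 and 7391 at 48 h, next 10527 and 7659 at 72 h and finally 15616 and 8551 at 96 h, and the groups overlapped at all 3 times. ATAC-Seq has no strand, so the signal between the genes belongs to either. Taking whichever of these intervals was stronger in a library, the change at the Trp53 promoter was −1.31 ± 0.67 at 48 h (limma, adjusted p = 0.413), an estimate that ran from −0.22 without 48 h replicate 1 to −2.40 without replicate 2. When the summit had to lie inside the promoter window, the 48 h value was −0.38, and the 72 h value was 1.08 in place of −0.50.

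Mdm2 (chr10:117688875-117710758, minus strand), the p53 inhibitor and p53 target, had lower promoter ranks at 48 h. Its promoter ranked 10542 and 8924 at 0 h, then 21129 and 14354 at 48 h, next 11148 and 5315 at 72 h and finally 14972 and 8214 at 96 h. The 48 h pair lay below both 0 h libraries, and the later pairs overlapped them on ranks. On percentiles the 72 h pair (92.1 and 96.6) stood above the 0 h pair (91.7 and 91.5). The changes were −0.84 ± 0.61 at 48 h, 0.33 at 72 h and −0.19 at 96 h (limma, adjusted p = 0.587, 0.875 and 0.987). Upstream of the gene, a region of 1338 bp was listed in all 8 libraries, and within it, at −6988 bp from the TSS, was a p53 site with no spacer and 1 mismatch. It ranked 12859 and 34300 at 0 h, then 17811 and 14378 at 48 h, next 11154 and 12179 at 72 h and finally 17636 and 25780 at 96 h. Both 72 h libraries stood above both 0 h libraries, which themselves differed widely, and the change there was 0.85 ± 0.60 (limma on distal regions, adjusted p = 0.796). This was the strongest of the 15 distal regions of Mdm2, and its window also held 1 AP-1 match, as did 8.82% of distal windows.

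**Figure D3:**
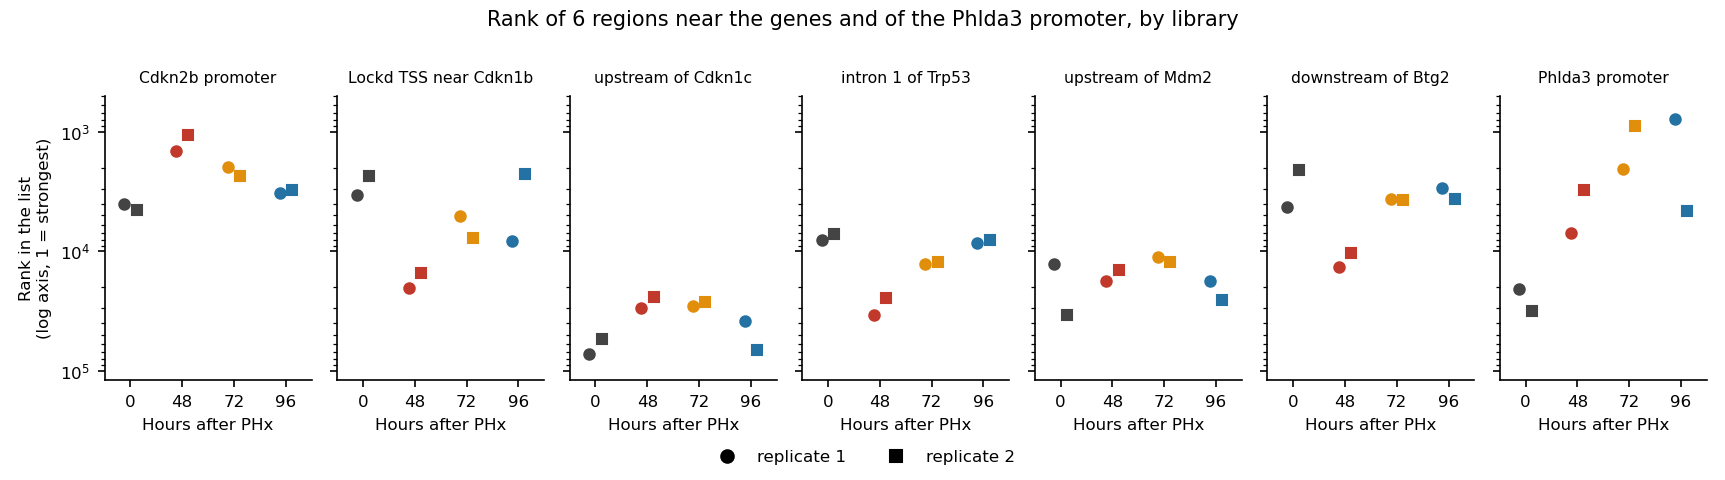
Rank (log axis, 1 = strongest at the top) by hours after PHx (0 to 96) of 6 regions near the 10 genes and of the Phlda3 promoter. Each point is 1 library, circles for replicate 1 and squares for replicate 2. The regions at Lockd, in Trp53 and downstream of Btg2 were lowest at 48 h, and Phlda3 stood above its 0 h ranks of 20753 and 31691 in all 6 libraries after PHx.

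Btg2 (chr1:134075170-134079120, minus strand), an early response gene and p53 target that restrains proliferation, was weak at its promoter and strong downstream. The promoter ranked 64353 and 30811 at 0 h, 52467 in 1 of the 2 libraries at 48 h, 126970 and 98841 at 72 h, and 59565 in 1 of the 2 at 96 h. Both 72 h libraries lay below both 0 h libraries, and the gene was not in the fit on promoters in all 8 lists. With absent intervals set at the list length plus 1, its changes were −0.94, −1.33 and −1.06 (limma, adjusted p = 0.443, 0.435 and 0.929). Its fold enrichment was 1.37 to 2.59, while the median of intervals of like rank was 2.51 to 8.15. A broad region of 3101 bp (chr1:134072873-134075973) at the end of the gene and beyond it ranked 3559 and 4802 at 0 h, then 11351 and 1883 at 48 h, next 934 and 2689 at 72 h and finally 98 and 5423 at 96 h. The 72 h pair stood above both 0 h libraries. At 96 h the change of 2.50 ± 1.08 (limma on distal regions, unadjusted p = 0.0256, adjusted p = 0.751) rested on ranks of opposite direction, replicate 1 above and replicate 2 below both 0 h libraries. The fold enrichment of this region was only 3.05 to 4.28, and it held the other listed p53 site, with 1 mismatch and a spacer of 8 bases.

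A region 13586 bp downstream of the Btg2 TSS (chr1:134064975-134065841), named after its values were seen, ranked 4292 and 2068 at 0 h, then 13417 and 10239 at 48 h, next 3667 and 3685 at 72 h and finally 2922 and 3648 at 96 h. Only the 48 h pair lay apart from both 0 h libraries, and its change was −1.98 ± 0.75 (limma on distal regions, unadjusted p = 0.0114, adjusted p = 0.301). Its sequence held 1 AP-1 match and 2 NF-Y boxes, the latter in 24.2% of distal windows.

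Gadd45b (chr10:80930073-80932204, plus strand), a stress response gene whose product restrains the mitotic CDK1, had lower promoter ranks at 72 and 96 h. Its promoter ranked 38049 and 20724 at 0 h, then 27705 and 50469 at 48 h, next 51928 and 46113 at 72 h and finally 45630 and 41813 at 96 h. The strongest interval was not the same one in each library. Its summit was at −170 and −182 bp at 0 h but at −872 bp in 72 h replicate 2. At 96 h it lay 1221 bp inside the gene in replicate 1 and at −876 bp in replicate 2. Both later pairs ranked below both 0 h libraries, and the 48 h pair overlapped them. On percentiles the 72 h pair (63.0 and 70.2) overlapped the 0 h pair (70.0 and 80.3), and the 96 h pair remained below it. The changes were −0.41, −0.80 and −0.64 with an SE of 0.45 (limma, adjusted p = 0.742, 0.565 and 0.945). The later changes were −0.36 and −0.20 without 0 h replicate 2, and −1.24 and −1.08 without 0 h replicate 1. A region 10617 bp downstream of the nearest TSS ranked 17908 and 24997 at 0 h, then 29868 and 34776 at 48 h, next 15335 and 17845 at 72 h and finally 43661 and 15147 at 96 h. It stood below the 0 h pair at 48 h and above it at 72 h. Another, 9669 bp downstream and named after its values were seen, was in the 50000 strongest intervals of both 0 h libraries and of neither 48 h library.

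**Figure D4:**
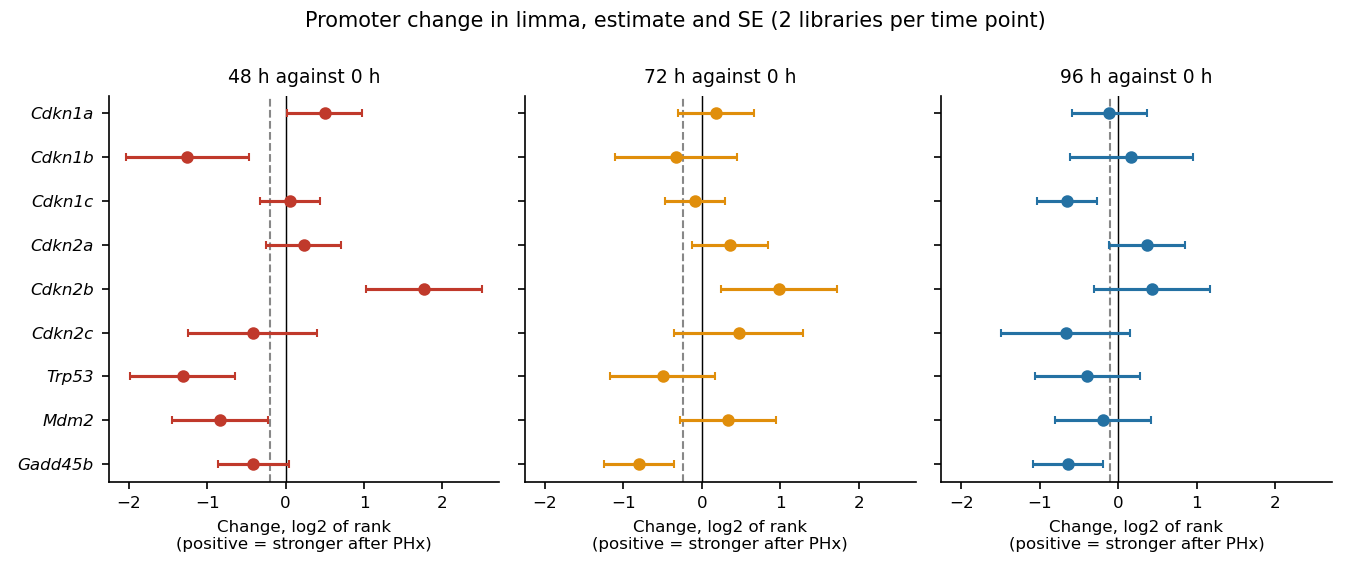
Change of the 9 tested promoters at 48, 72 and 96 h against 0 h, in log2 of rank (positive = stronger after PHx), as the limma estimate with its SE from 2 libraries per time point. The solid line is 0 and the dashed line the median of all 13220 promoters (−0.20, −0.24 and −0.10). Cdkn2b at 1.76 lies farthest to the right at 48 h and Trp53 at −1.31 farthest to the left.

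The strongest distal region by mean percentile ranked 30698 or lower in every list that held it for Cdkn1a, Cdkn1b, Cdkn2b and Cdkn2c. That of Cdkn1a, in its UTR, was in 2 lists (81254 at 48 h and 103426 at 96 h). That of Cdkn1b, 6929 bp from the TSS, ranked 42994 and 38979 at 0 h against 71486 and 47501 at 72 h, where both libraries ranked lower but overlapped the 0 h pair on percentiles (49.1 and 69.3 against 66.1 and 63.0). On percentiles its 48 h pair stood above the 0 h pair (69.4 and 71.8), as did its 96 h pair (67.2 and 75.9). That of Cdkn2b was in 6 lists at ranks from 52129 to 100652, and that of Cdkn2c in 4 lists at ranks from 87754 to 99162. Trp53 had no distal region in at least 2 lists.

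Counted together, the distal regions stood higher as well as lower after PHx. Of the 33 in at least 2 lists, both 48 h libraries stood above both 0 h libraries at 7 and below at 7, beside 11.8% and 15.6% of 125221 distal regions genome-wide. At 72 h the counts were 7 above and 4 below (17.9% and 13%), and at 96 h 3 above and 2 below (12.4% and 12.9%). In limma 11 of the 33 could be tested among 41536 regions and 0 were called at 48, 72 or 96 h or for the PHx mean, beside shares called of 0.00963%, 0%, 0% and 0%. The number with an unadjusted p under 0.05 was 2, 1, 1 and 1 of the 11, and 4737, 3093, 2660 and 3751 of all distal regions. The contrasts of 72 h and 96 h against 48 h also called 0 of the promoters and 0 of the distal regions near these genes, with 0 promoters and 1 and 2 distal regions at an unadjusted p under 0.05. Across the genome these contrasts called 0 and 0 promoters and 0 and 4 distal regions, with an unadjusted p under 0.05 at 6.13% and 7.93% of promoters and at 8.85% and 8.82% of distal regions.

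**Figure D5:**
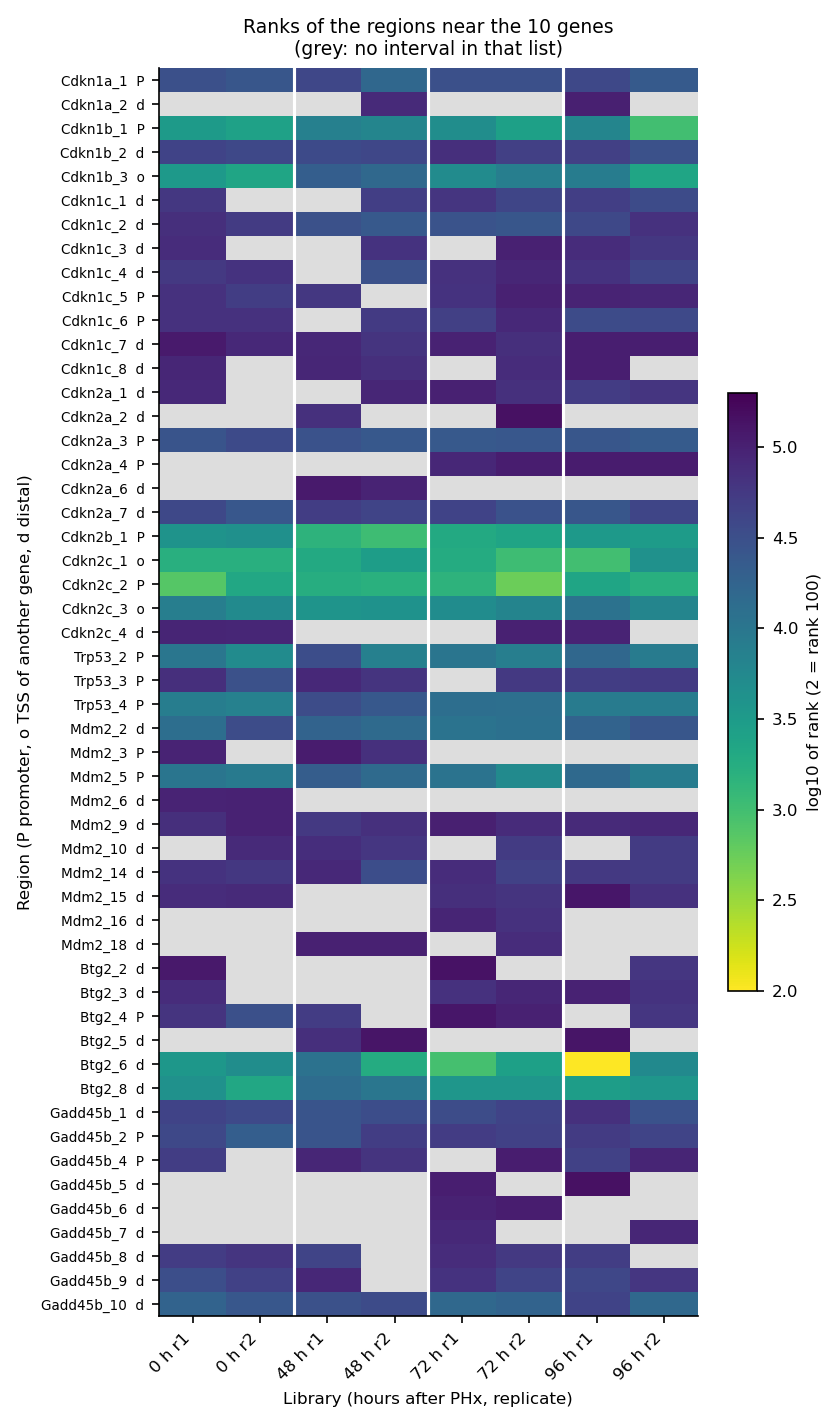
Rank of the 52 regions in at least 2 lists near the 10 genes, 1 row per region named by gene and number, in each of the 8 libraries (log10 of rank, yellow strongest, grey for no interval). Ranks between 98 and 11351 stand at the promoters of Cdkn1b, Cdkn2b and Cdkn2c and at the broad region of Btg2, and most grey cells are at weak distal regions.

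Gained and lost regions were few. Of the 52 regions, 1 was gained at 48 h (the region upstream of Cdkn1c) and 1 lost (9669 bp downstream of Gadd45b), against 1.30% and 1.71% of 149843 regions genome-wide. At 72 h 1 was gained, again upstream of Cdkn1c, and 0 lost (1.41% and 1.34%). At 96 h 2 were gained, both at Cdkn1c, 1 of them at −9127 bp and 1 in its intron, and 0 were lost (1.10% and 1.18%). These regions are named because they met the definition of gained or lost, after their values were seen.

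Among related genes in lists drawn up with these results known, the p53 target Phlda3 was the only one whose promoter was called. Phlda3 encodes a small lipid-binding protein that holds back Akt signalling. Its promoter (gene at chr1:135766119-135769136) ranked 20753 and 31691 at 0 h, then 7002 and 3058 at 48 h, next 2042 and 888 at 72 h and finally 775 and 4584 at 96 h. All 6 libraries after PHx stood above both 0 h libraries, and the fold enrichment was 10.1 and 8.39 at 0 h, then 9.74 and 12.7 at 48 h, next 14.4 and 16.7 at 72 h and finally 17.7 and 14.1 at 96 h. The change for the PHx mean was 3.5 ± 0.64 (limma, adjusted p = 0.0344), in a contrast that called 3 of 13220 promoters (0.0227%). The call was lost on the percentile scale (adjusted p = 0.168), with centred fold enrichment (0.109), with the replicate number as a block (0.0678), and without either 0 h library (0.18 and 1), either 48 h library (0.0905 and 0.0795) or 72 h replicate 2 (0.175), although the direction held under all 16 alternatives. At single times the adjusted p was 0.205, 0.0585 and 0.192.

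The other 23 p53 targets, 12 p53 regulators and 10 relatives of the inhibitors were all accessible in all 8 lists, and 0 of them were called. The shares of all promoters called were 0.0454%, 0% and 0.00756% at 48, 72 and 96 h and 0.0227% for the PHx mean. At 48 h, both libraries lay above both 0 h libraries at 3 of the 24 targets and below at 8, at 1 and 6 of the 12 regulators, and at 2 and 3 of the 10 relatives, beside 16.4% above and 26.4% below among all promoters. At 72 h the counts above and below were 2 and 8 targets, 0 and 7 regulators and 0 and 2 relatives (16.5% and 28.8% of all promoters). At 96 h they were 4 and 5, 0 and 1, and 1 and 2 (14.2% and 18.2%). The median changes of the 3 lists at 48 h were −0.55, −0.53 and −0.46, beside −0.20 for all promoters. At 72 h they were −0.33, −0.55 and −0.49, beside −0.24, and at 96 h −0.16, −0.07 and 0.02, beside −0.10. The relative with the largest difference at 48 h was Wee1, a kinase that restrains CDK1, at ranks 221 and 674 at 0 h against 181 and 116 at 48 h (1.41 ± 0.87, limma, adjusted p = 0.502). The regulator was Trp53bp1, a DNA damage adaptor, at 10594 and 5722 at 0 h against 19898 and 23643 at 48 h (−1.48 ± 0.87, limma, adjusted p = 0.481).

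Over the 8 libraries, the promoters whose log2 ranks ran most like Cdkn1a among 13220 were Antxr2 (Pearson r = 0.967), Pa2g4 (0.957) and Pnisr (0.940), and those most like Trp53 were Helb (0.963), Eri2 and Rexo5 (both 0.961, from 1 shared interval). The points share libraries and their depth, and the 3 highest of so many correlations are given as a description.

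Of the 10 hepatocyte markers 9 matched an annotated symbol, and all 9 promoters were listed at 0 h, 6 to 7 of them in the 48 h lists. At 8 of the 9, both 48 h libraries lay below both 0 h libraries, and the same count held at 72 h and was 6 at 96 h, beside 26.4%, 28.8% and 18.2% of all promoters. The median change of the 5 markers in all 8 lists was −0.75 at 48 h, and the markers missing from some lists are not in it. Hnf4a, a hepatocyte transcription factor, ranked 2492 and 1918 at 0 h against 5443 and 3415 at 48 h (−0.98 ± 0.74, limma, adjusted p = 0.602). At 48 h the Cdkn1b and Mdm2 promoters, the intron region of Trp53 and the region downstream of Btg2 also ranked lower. The median change of the 5 markers stayed at −0.72 at 72 h and −0.56 at 96 h. By then the Cdkn1b and Mdm2 promoters and the Btg2 region overlapped their 0 h ranks, while the Trp53 region still ranked below at 72 h. The part of the marker changes in these ranks was not tested. Kupffer cell markers were in no list for 6 of 8 and lymphocyte markers for 4 of 6. Endothelial, stellate and cholangiocyte markers were listed for 2 to 5 of 8, 2 to 5 of 8 and 2 to 5 of 6 promoters per library. Of the 8 stellate markers, 2 stood above both 0 h libraries and 0 below at 48 h, with the same counts at 96 h. At 72 h the counts were 0 and 0. The shares above among all promoters were 16.4%, 16.5% and 14.2% at 48, 72 and 96 h. The 2 stellate markers in all 8 lists had median changes of 1.03, 0.28 and 0.83 at the 3 times. One of them, Reln, had a change of 1.81 ± 0.73 at 48 h (limma, adjusted p = 0.298). Of the 6 cholangiocyte markers, 0 stood above and 1 below at 48 h, with the same counts at 72 h and 0 and 0 at 96 h. The 2 in all 8 lists had median changes of 0.76, 0.44 and 0.5 at the 3 times. The part of other cell types in the ranks of the 10 genes was not tested.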

How the data were processed

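Bulk ATAC-Seq was measured in 8 libraries, 2 at each time point, grouped by their labels. The authors trimmed the reads, aligned them to mm10 with Bowtie2, removed PCR duplicates and called peaks with MACS2 through the ENCODE pipeline (versions not given in the sources used here). By the list names, tags were shifted for Tn5, peaks were limited by p-value and by number, and blacklisted regions were removed. Each library had its own calls. Each deposited line gives a display score, the fold enrichment against the surroundings, the −log10 of the p-value and of the q-value, and the summit. No read counts were used, so the depth behind a peak is unknown and no interval or floor was computed.

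Lines sharing an interval were collapsed to the highest −log10 p and ranked within each list. Regions were made by merging intervals of all lists that overlapped by at least 1 bp. Distal regions lay over 1 kb from every TSS of GENCODE M21 basic. Features with an interval in all 8 lists were tested with limma 3.58.1 in R 4.3.3 (trend, all 8 libraries, time point as the only term), and separation was counted for features in at least 2 lists, an absent interval counting as last. The limma step was tested on simulated data. The count-based test of the study needs reads per peak and was not run. Sequences came from GRCm38.p6, on which 0 deposited intervals passed a chromosome end. Motifs were searched on both strands within 100 bp of the summit with the highest −log10 p. They were AP-1 TGANTCA, C/EBP TTGCNNAA, CTCF core AGNNGGCGC, NF-Y CCAAT, E-box CACGTG, Sp1 GGGGCGGGG, NF-kB GGACTTTCC and GGAATTTCC, FOXA TGTTTAC, E2F TTTCCCGC and TTTGGCGC, CRE TGACGTCA, STAT TTCCNGGAA, HNF4 CAAAGTCCA, and p53 as a pair of its 10-base consensus with 0 to 13 bases between. The motifs may overlap each other.

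The members and lists were chosen with earlier results of these data known. All 10 genes were named by their promoters, each gene's distal region with the highest mean percentile was named, and in each other list a called gene or, failing that, the gene with the largest 48 h change among those separated. Regions outside this rule were named after their values were seen. The replicate numbers did not pair the libraries, since the correlations of same-numbered deviations ran from −0.086 to 0.116.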

Additional observations from a re-analysis of the deposited data

How the results depend on the processing

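The 0 calls among the promoters and distal regions near the 10 genes held in all 186 alternatives of those counts. Of 420 alternatives of the 27 promoter changes, 27 had the opposite sign and 0 passed the threshold. Percentiles in place of log2 rank gave 0 promoters called at 48 h, 96 h and for the PHx mean and 0 distal regions at 48 h and for 96 against 48 h (4 in the fit reported above), and changes in percentile points of 2.51 for Cdkn1a and 0.01 for Mdm2 at 96 h, −0.12 for Cdkn1b at 96 h and 7.31 for Cdkn1c at 72 h. Centred fold enrichment gave 0 promoters called at 48 and 96 h, 1 promoter and 1 distal region for the PHx mean and 0 distal regions for 96 against 48 h, and log2 changes of 0.06 for Cdkn1c at 72 h, 0.06 for Cdkn2c at 48 h, and 0.14 and 0.11 for Trp53 at 72 and 96 h. Centred ranks called 12 promoters at 48 h and 1 at 72 h and put Cdkn1c at 0.20 at 72 h. Setting an absent interval at the list length plus 1 called 3, 6 and 9 promoters at 72 h, 96 h and for the PHx mean, and 1 and 2 for 72 and 96 h against 48 h. It called 65, 7 and 74 distal regions at 48 h, 72 h and for the PHx mean, and 7 and 38 for 72 and 96 h against 48 h, with more regions tested. Requiring q under 0.05 called 1 promoter at 72 h and 0 at 96 h, 1 and 3 distal regions at 48 h and for the PHx mean, and left 1 distal region of the 10 genes lower at 96 h. A summit inside the window called 1 promoter at 72 h and 0 at 96 h and put Trp53 at 1.08 at 72 h. Promoters within 500 bp called 2 at 72 h, 5 for the PHx mean, and 3 and 4 for 72 and 96 h against 48 h, with 2 promoters of the 10 genes higher at 48 h and Cdkn1a at 0.37 at 96 h. The replicate block called 3 promoters at 48 h and 0 for the PHx mean and changed no call of the 10 genes. The fit on all regions called 7 regions at 48 h.

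Separation counts moved on percentiles to 4 promoters higher and 1 lower and 11 distal regions higher and 1 lower at 72 h, and to 5 distal regions higher and 1 lower at 96 h. Within the 50000 strongest intervals 2 distal regions were higher and 4 lower at 48 h, then 4 and 1 at 72 h, with 1 and 0 at 96 h, and 1 promoter was lower at 72 h. The mean number of intervals near the genes per library, summed over genes so that those shared by Cdkn2a and Cdkn2b count for each, went from 51.5 to 155.5 with 50 kb on each side and to 25.0 in the 50000 strongest. The causes of these moves were not tested.

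Leaving out 1 library at a time, promoters called ranged from 1 to 47 at 48 h (43 and 47 without 96 h replicate 1 and 2), 0 to 7 at 72 h (7 without either 96 h library), 0 to 5 at 96 h, 0 to 110 for the PHx mean (110 without 96 h replicate 2), 0 to 2 for 72 against 48 h and 0 to 150 for 96 against 48 h (150 without 96 h replicate 1). Distal calls ranged from 0 to 6 at 48 h, 0 to 1 at 96 h, for the PHx mean and for 72 against 48 h, and 0 to 4 for 96 against 48 h. With 1 library left out, promoters higher and lower numbered 1 to 3 and 3 to 6 at 48 h, 3 to 4 and 2 to 5 at 72 h, and 2 to 4 and 3 to 7 at 96 h, and distal regions 9 to 15 and 7 to 11, 9 to 15 and 5 to 9, and 6 to 13 and 5 to 7. These separation counts can only hold or rise when a library is dropped, so they do not show that a separation is stable. A lone library was assumed to vary like the other groups. Changes ran from −0.17 to 1.18, −0.04 to 0.40 and −0.33 to 0.11 for Cdkn1a at 48, 72 and 96 h, from −0.76 to 0.10 and −1.15 to 1.5 for Cdkn1b at 72 and 96 h, and from −0.15 to 0.27 and −0.49 to 0.32 for Cdkn1c at 48 and 72 h. They ran from −1.17 to 0.34, −0.29 to 1.22 and −1.42 to 0.08 for Cdkn2c at the 3 times, from −0.20 to 0.87 and −0.63 to 0.24 for Mdm2 at 72 and 96 h, and from −0.85 to 0.03, −1.24 to −0.36 and −1.08 to −0.20 for Gadd45b at the 3 times. They ran from 0.05 to 0.41, 0.18 to 0.54 and 0.19 to 0.55 for Cdkn2a and from −2.40 to −0.22, −0.83 to −0.17 and −0.72 to −0.05 for Trp53. With 2 lists per time point and no depths, the rank changes at the promoters and regions of the 10 genes did not pass the adjusted threshold.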
